A study of Mus musculus with 6 samples.

Results

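Of 18194 genes read in mouse C2C12 cells, 35 differed between cells carrying a hairpin against Rp58 and control-vector cells while staying at nearly 1 level from day 0 to day 4 of muscle differentiation in parental cells. They were chosen from the deposited log2 values by these steps. Each gene was represented by the probe set with the highest mean over the 6 arrays, among probe sets annotated to 1 gene. Its highest level had to reach 8, which 13092 genes did. The difference of shRp58 minus control vector had to be at least 0.5 in size (1.41-fold). The differences of day 2 and of day 4 from day 0 both had to be below 0.4 in size (1.32-fold). Of 38 genes that met these steps, 3 with symbols set aside by the choice (Col6a1, Fos and Ptn) were left out. Of the 35, 27 were lower with shRp58 and 8 were higher.

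C2C12 is a mouse myoblast line that fuses into multinucleated myotubes once serum is reduced. Parental cells were sampled in growth medium with 10% fetal bovine serum, at day 0 just after the confluent culture was moved to 2% horse serum, and at days 2 and 4 in that medium. The other groups were stable C2C12 transfectants at day 0, kept under 500 µg/ml G418 for 2 weeks of selection. They carried either the shRp58 vector or a control, called a LacZ vector in one label and a control sh in another. Whether a stable line was a pool of transfectants or 1 clone is not given in the sources used here, so a hairpin difference and a difference between lines cannot be told apart. Each of the 6 groups was 1 Affymetrix mouse expression array, with no replicate and therefore no test and no p-value. All differences below are between single arrays, and the number of arrays limits their precision. The medians of all probe sets were 8.26 to 8.27 on the 4 parental arrays and 7.15 on both stable-line arrays. Levels were therefore compared within each set of arrays unless a shared normalization is named.

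Rp58, now called Zbtb18, is a zinc finger protein that binds DNA and represses transcription, and in muscle cells it is known for repressing the Id genes, whose products hold back the myogenic regulators. Its level is known to climb as myoblasts differentiate, and muscle genes and cell cycle genes change together at that time, a course that the 35 genes did not share. Zbtb18 itself was not flat: it read 11.18 in growth medium, 11.88, 12.86 and 13.06 at days 0, 2 and 4, 11.69 with the control vector and 11.16 with shRp58. Its hairpin difference was -0.53.

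Hairpin differences of this size were uncommon, and flat genes were uncommon among them. Of the 13092 genes, 400 were at least 0.5 lower with shRp58 (3.06%) and 269 were at least 0.5 higher (2.05%), and 59.3% of all genes were flat. Of the 669 genes shifted in either direction (5.11%), a share of 5.68% was flat, 29 of the 400 lower ones and 9 of the 269 higher ones before symbols were left out. The complete choice kept 0.267% of the genes. These counts restate the choice and are a description only. The 27 lower members ran from -1.07 (Tmem47) to -0.50 (Qtrt2), with a median of -0.58, and the 8 higher ones from 0.51 (Btla) to 0.92 (H3f3b), with a median of 0.54. Only Tmem47 reached 2-fold. The robust standard deviation of this difference over the 13092 genes was 0.17 and their central 95% ran from -0.55 to 0.46, a spread over genes that gives no error for a single one.

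Near the thresholds, Qtrt2, C1qtnf1 (both -0.50) and Btla (0.51) lay just inside the hairpin threshold, and Casp4 (-0.497), Secisbp2l (-0.49) and Muc2 (0.49) just outside. For flatness, Tgm2 and Dmpk (largest move 0.40) and Ifrd1 (0.38) lay just inside, and Ndn (0.40), Itga5 (0.41) and Raly (0.44) just outside. For level, H3f3b (8.09), Sla (8.36) and Taf3 (8.37) were the dimmest kept, and Nyx (7.97), Gm38440 (7.95) and Car6 (7.93) the brightest not kept.

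**Figure D1:**
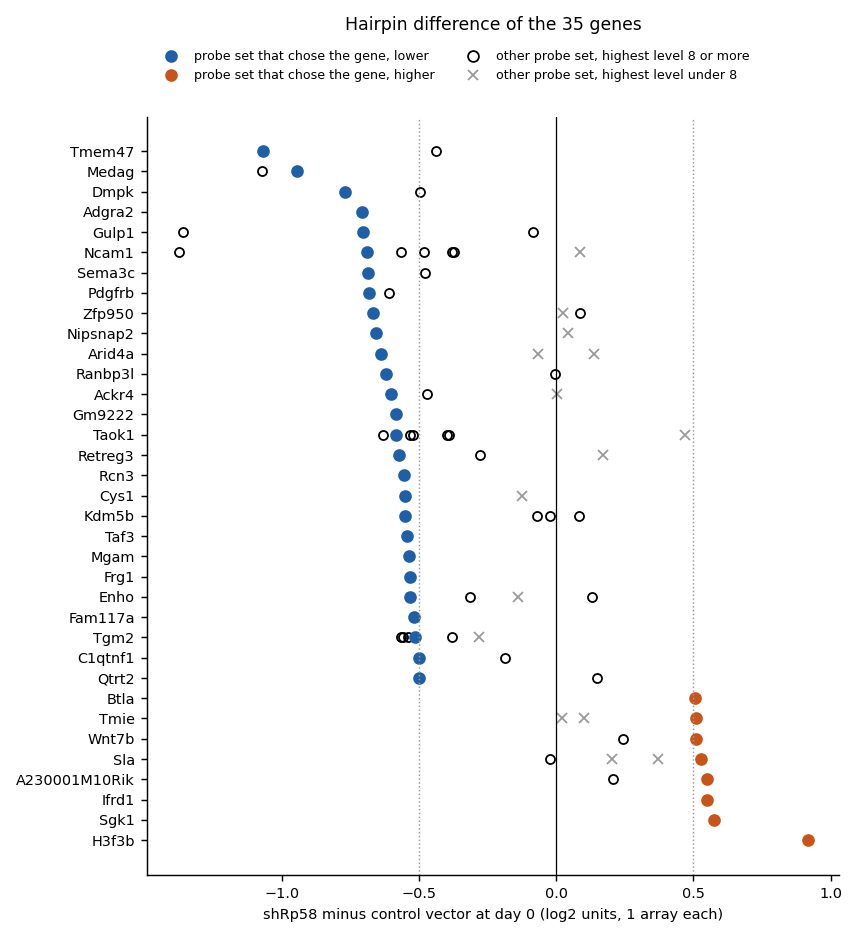
Difference of shRp58 minus control vector at day 0 in log2 units for each of the 35 genes, 1 array per line. Filled points are the probe sets that chose the genes, open circles and crosses are other probe sets of the same genes with a highest level of at least 8 or under 8, and dotted lines mark 0.5 in each direction. Tmem47 (-1.07) and H3f3b (0.92) lie farthest out, and many other probe sets lie closer to 0 than the chosen ones.

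The growth-medium array entered the choice through the mean and the highest level, not through a difference, and most of the genes were not flat there. Of the 27 genes lower with shRp58, 26 stood higher at day 0 than in growth medium, where 61.6% of all genes at this level and 57.7% of flat genes with no hairpin shift did. Their day 0 minus growth medium difference had a median of 0.68, against 0.10 over all genes, and 0.58 relative to it. At least 0.5 higher at day 0 were 15 of the 27 (55.6%), against 15.1% of all genes, 9.76% of the flat unshifted genes and 65.8% of the 371 genes lower with shRp58 that were not flat. At least 2-fold higher were 10 of the 27 (37.0%), against 2.93% of all genes and 0.80% of the flat unshifted genes. Among the 371 lower genes that were not flat the share was 37.5%, much the same as in the members. Of the 8 genes higher with shRp58, 7 stood lower at day 0 than in growth medium, with a median of -0.42. Beside this, 61.6% of all genes and 57.7% of the flat unshifted genes stood higher at day 0. At least 0.5 lower were 3 of these 8, against 4.71% of all genes and 3.69% of the flat unshifted genes. The share was 15.8% for the 260 genes higher with shRp58 that were not flat.

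So 33 of the 35 genes had opposite signs in the hairpin comparison and in the step from growth medium to day 0. The exceptions were Qtrt2, which was lower in both, and H3f3b, which was higher in both. The share of opposite signs over all genes was not counted, so 33 of 35 is a description with no background beside it. Opposite directions were not particular to the members. Among shifted genes that were not flat, the median step was 0.76 for the 371 lower and -0.23 for the 260 higher. The day 0 array is shared with the flatness step, and since that step holds days 2 and 4 within 0.4 of day 0, those days are no separate evidence for the step from growth medium. Changing the normalization left the direction of the step in place for the members, except that Ncam1 (0.13 as deposited) turned negative after quantile and loess normalization. In all, 10 of the 35 moved by less than 0.4 at this step too, 6 of them lower with shRp58 (Dmpk, Ncam1, Arid4a, Ackr4, Gm9222 and Taf3) and 4 higher (Tmie, Wnt7b, A230001M10Rik and H3f3b). Such small steps were the rule: 70.8% of all genes and 77% of the flat unshifted genes moved by less than 0.4 here. Not all 10 were level over the whole course, since Dmpk stood 0.71 above growth medium at day 4.

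**Figure D2:**
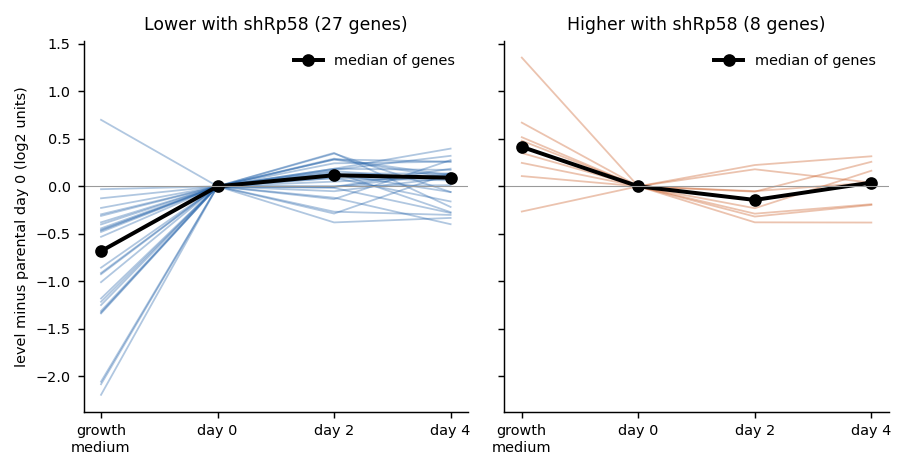
Level in parental cells relative to day 0, in log2 units, for the 27 genes lower (left) and 8 genes higher (right) with shRp58. Thin lines are genes and the black line is their median. Both sets stay within 0.4 of day 0 at days 2 and 4, as the choice requires, while in growth medium the lower genes lie mostly below and the higher genes mostly above day 0.

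**Figure D3:**
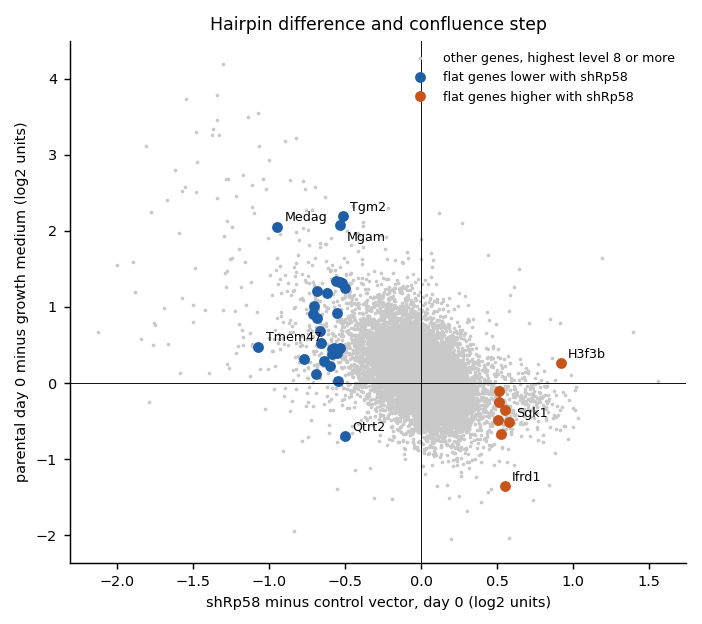
Parental day 0 minus growth medium against shRp58 minus control vector, in log2 units, for the 13092 genes with a highest level of at least 8. Grey points are the other genes, blue and orange points the 35 flat genes. The flat genes lie in the same upper left and lower right parts of the cloud as other shifted genes, apart from Qtrt2 and H3f3b.

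The members are described by kind of protein, a grouping made by hand, starting with receptors and surface proteins among the lower genes. Tmem47, a small membrane protein of the claudin-like family found at cell junctions, read 10.44 in growth medium, 10.92, 10.63 and 11.05 at days 0, 2 and 4, and 9.70 with control vector and 8.63 with shRp58. It had the widest hairpin difference of the set, -1.07 or 2.10-fold, and the shRp58 array was its low one against the control. Pdgfrb, the receptor for platelet-derived growth factor B, read 11.11 in growth medium, then 11.96, 12.25 and 12.22, and 10.39 and 9.71 in the control-vector and shRp58 cells (-0.68). Growth medium was its lowest parental array and the 3 differentiation arrays lay close together. Ncam1, the neural cell adhesion molecule that myoblasts also carry, read 11.69, 11.82, 11.98 and 11.89 in the same order, and 10.90 and 10.21 in the stable lines (-0.69).

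Adgra2, an adhesion G-protein-coupled receptor that serves Wnt7 signalling in brain vessels, had a hairpin difference of -0.71 and read 9.10 in growth medium and 10.01, 9.99 and 9.73 at days 0, 2 and 4. Its control-vector value was 9.49 and its shRp58 value 8.78. Ackr4, a scavenging receptor for chemokines, differed by -0.60 and moved by at most 0.01 in size between day 0 and either later day, the steadiest of the set, but its shRp58 value of 7.14 lay just under the median of that array. Cys1, a cilium-associated protein, differed by -0.55 and was also dim with shRp58 (7.07). In the list of growth factor and cytokine receptors 47 genes reached the level and 21 were flat; 5 were at least 0.5 lower with shRp58 and 0 higher, and Pdgfrb was the one member among them. The list's median hairpin difference was -0.19, beside -0.01 over all genes.

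Secreted proteins come next in this grouping. Sema3c, a semaphorin that guides migrating cells, read 9.66 in growth medium, 10.88, 11.01 and 11.01 at days 0, 2 and 4, 11.68 with control vector and 10.99 with shRp58. Its difference was -0.69. In the deposited values it was 1 of 2 members, with H3f3b, whose highest value was on a stable-line array, here the control vector. That ranking crosses the scales of the deposited values, in which the stable-line arrays have the lower median. Enho, which encodes the peptide hormone adropin, differed by -0.53 and stood 1.33 higher at day 0 than in growth medium. C1qtnf1, a secreted relative of complement C1q, differed by -0.50, stood 1.25 higher at day 0 and moved by -0.57 between days 2 and 4. Of 61 secreted growth factors and cytokines at the level, 11 were at least 0.5 lower and 1 higher, and 22 were flat. Sema3c was the one member (list median -0.13). Ptn (-1.59) was barred from membership by its symbol and met all other steps of the choice.

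On the other side Wnt7b, a Wnt ligand, read 10.09 in growth medium, 9.98, 9.66 and 9.79 at days 0, 2 and 4, and 9.51 and 10.02 in the control-vector and shRp58 cells (0.51). On the parental arrays it moved little. The ligand Wnt7b and the receptor Adgra2 thus had opposite hairpin signs. In the list of Notch, Wnt, TGF-beta and BMP genes 36 reached the level, 2 were at least 0.5 lower, 2 higher and 19 flat, with a median of -0.03.

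Genes that act outside or at the matrix and in the secretory pathway also appeared among the lower ones. Tgm2, the tissue transglutaminase that crosslinks proteins, read 8.65 in growth medium and 10.84, 10.72 and 10.44 at days 0, 2 and 4, with 10.12 in control-vector and 9.60 in shRp58 cells. Its step of 2.19 between growth medium and day 0 was the largest of the set, while its hairpin difference was -0.52. Rcn3, a calcium-binding protein of the endoplasmic reticulum, stood 1.34 higher at day 0 and differed by -0.56 with shRp58. Retreg3, a receptor for autophagy of the endoplasmic reticulum, differed by -0.57. Mgam, a maltase-glucoamylase best known from the intestinal brush border, read 8.33 in growth medium, 10.41, 10.03 and 10.08 later, and 10.33 and 9.79 in the stable lines (-0.54). In the matrix list, 9 of 44 genes at the level were at least 0.5 lower and 1 higher, and none of them was a member. The choice barred symbols starting with Col from membership, and Col6a1 (-0.59) met all its other steps.

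Signalling and adaptor proteins included the second widest difference. Medag, a cytoplasmic protein that promotes fat cell formation, read 7.95 in growth medium, 10.01, 10.15 and 9.73 at days 0, 2 and 4, and 9.10 with control vector and 8.15 with shRp58. It differed by -0.95, or 1.93-fold, and its growth-medium value lay under the level of 8. In the adipocyte list 12 genes reached the level, 2 were at least 0.5 lower and 1 higher (median -0.05), and of 4 adipocyte markers Adipoq (4.74 and 4.67) and Fabp4 (6.45 and 6.30) read under the median of 7.15 in the stable lines while Cebpa (9.21 and 8.95) and Pparg (7.69 and 7.77) read above it. Dmpk, the protein kinase whose gene carries the repeat expansion of myotonic dystrophy, read 10.89, 11.20, 11.38 and 11.59 on the parental arrays and 11.30 and 10.53 in the stable lines (-0.77). Its values climbed from each parental array to the next, and its day 4 difference of 0.40 lay at the edge of the flatness limit.

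Gulp1, an adaptor for the engulfment of dying cells, differed by -0.70 and stood 1.01 higher at day 0 than in growth medium. Taok1, a kinase acting on MAP kinase pathways and microtubules, read 12.11, 12.55, 12.72 and 12.87 on the parental arrays and 11.82 and 11.24 in the stable lines (-0.58). Ranbp3l, a Ran-binding protein, differed by -0.62, stood 1.18 higher at day 0 and moved by -0.40 between days 2 and 4. On the higher side Sgk1, the serum- and glucocorticoid-inducible kinase, read 12.35 in growth medium, 11.83, 11.78 and 11.87 at days 0, 2 and 4, and 10.36 with control vector and 10.94 with shRp58 (0.58). Among the parental arrays its high one was growth medium. Amount and kind of serum changed together between that array and day 0, and their part was not tested. Sla, a Src-like adaptor of blood cells, differed by 0.53 and Btla, an inhibitory receptor of lymphocytes, by 0.51. Both read under the array median of 7.15 with control vector (6.81 and 7.03), and of 4 leukocyte markers Ptprc (4.99 and 5.08) and Cd68 (6.57 on both) read under that median in the stable lines while Csf1r (8.28 and 8.53) and Lyz2 (7.23 and 7.34) read above it.

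Nuclear proteins stood on both sides. Kdm5b, a histone H3 demethylase, differed by -0.55 and stood 0.92 higher at day 0. Zfp950, a zinc finger gene, differed by -0.67 and stood 0.68 higher at day 0, and 4 of 257 Zfp genes at the level were at least 0.5 lower and 0 higher. Arid4a, a chromatin protein that binds the retinoblastoma protein, differed by -0.64 and Taf3, a subunit of the general transcription factor TFIID, by -0.54. Arid4a (6.27 and 5.63) and Taf3 (7.01 and 6.46) read under the median of both stable-line arrays, so the sizes of their differences are not exact. Frg1, named for the facioscapulohumeral dystrophy region, differed by -0.53.

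Ifrd1, a transcriptional coregulator active in muscle regeneration, had the widest step from growth medium on the higher side. It read 12.41 in growth medium, 11.06, 10.68 and 10.68 at days 0, 2 and 4, and 9.85 with control vector and 10.40 with shRp58 (0.55). Growth medium was its highest parental array by 1.35, and its later moves of -0.38 lay near the flatness limit. H3f3b, which encodes histone H3.3, had the largest higher difference, 0.92, but its probe set was dim: it read 7.27, 6.98 and 7.08 at days 0, 2 and 4, with day 0 only 0.27 above growth medium, and 7.17 and 8.09 in the stable lines. The shRp58 array was the one array on which it reached 8. A further 5 probe sets that the annotation gives to H3f3b together with other genes read between 13.0 and 14.0 on average and differed by -0.21 to 0.20. They did not show the shift of the dim probe set.

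The remaining members were of other or little-known function. Nipsnap2, a mitochondrial protein, differed by -0.66, Fam117a by -0.52 and Gm9222, a predicted gene, by -0.58. Qtrt2, a subunit of the enzyme that puts queuine into transfer RNA, differed by -0.50 and was the one lower gene below its growth-medium level (-0.70). Tmie, a protein of hair cell mechanotransduction in the ear, differed by 0.51, and A230001M10Rik by 0.55. A suffix of x or s on a probe set, which marks probes that can match more than 1 transcript family, applied to Gm9222 and Tgm2 (x) and to Adgra2 and Enho (s).

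How far the difference holds across probe sets was read from 50 other probe sets, which 24 of the 35 genes had. They were not used in the choice, but they read the same arrays and so describe agreement between probes. In 38 of the 50 (76%) the sign was the same, and 11 were at least 0.5 apart in that direction and 0 in the opposite one. Among the 35 further probe sets that reached a level of 8, 85.7% had the same sign and 31.4% were at least 0.5 apart that way, beside 92% and 50.1% for other probe sets of shifted genes that were not flat.

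The 6 genes with a further probe set past 0.5 were Medag, Gulp1, Ncam1, Pdgfrb, Taok1 and Tgm2. For Tgm2 all 5 others were lower, from -0.57 to -0.28. For Pdgfrb the other probe set gave -0.61 and for Medag -1.07. Sema3c (-0.48), Dmpk (-0.50) and Tmem47 (-0.44) had 1 further probe set each, lower but under the threshold. Gulp1 was split, with -1.36 on one and -0.08 on another, both of them at a level of at least 8.

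For 8 genes no further probe set at a level of 8 reached 0.25 in the same direction: C1qtnf1, Kdm5b, Qtrt2, Ranbp3l, Zfp950, Wnt7b, Sla and A230001M10Rik. In Kdm5b the other 3 gave -0.07, -0.02 and 0.08, and in Ranbp3l the other gave 0.00 to 2 decimals. For these genes the hairpin difference rests on 1 probe set. It does so too for the 11 members that had only 1 probe set annotated to them alone. Nipsnap2, Arid4a, Cys1 and Tmie had further probe sets only under a level of 8.

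Flatness, too, depended on the probe set for 2 of the genes in particular. Ncam1, which is spliced into several isoforms, had 4 further probe sets that were not flat; one stood 1.79 higher at day 2 and 2.28 higher at day 4 than at day 0, and differed by -1.38 with shRp58. Taok1 had 4 as well, up to 0.87 higher at day 4, with hairpin differences from -0.63 to -0.39. For Medag, Tgm2, Zfp950 and Sla 1 further probe set at this level passed the 0.4 limit. Without these 6 genes, 22 lower and 7 higher members were left.

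**Figure D4:**
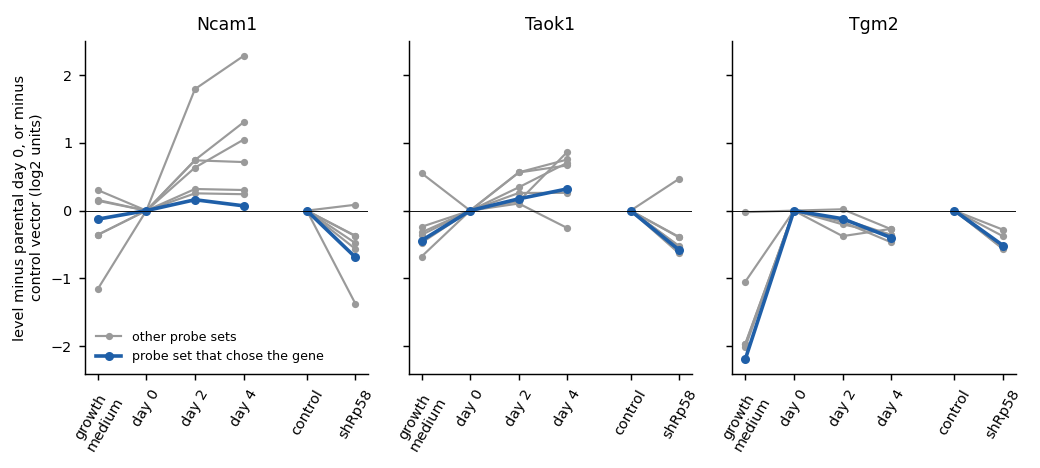
Probe sets of Ncam1, Taok1 and Tgm2 in log2 units: the left part of each panel is the parental level minus parental day 0, the right part the shRp58 level minus control vector. Blue is the probe set that chose the gene and grey the others; for Ncam1 one grey line reaches 2.28 at day 4, whereas the Tgm2 probe sets stay within 0.5 of day 0 at days 2 and 4 but stand 0.02 to 2.19 higher at day 0 than in growth medium.

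Both stable lines were also set against parental cells at day 0. This crosses the scales of the deposited values, so all 6 arrays were first quantile-normalized. Every array compared here was used in the choice: hairpin and control in the hairpin step, parental day 0 in the flatness step. The values are therefore a description and no separate evidence on which line stood apart. For the 27 lower genes control vector minus parental day 0 had a median of 0.13 and shRp58 minus parental a median of -0.42. Control-vector cells lay nearer to parental cells in 18 of the 27. The 8 higher genes had medians of 0.14 and 0.64, and control-vector cells lay nearer in 6. Over all genes control-vector cells lay nearer in 43.3%, and among the 7729 flat unshifted genes in 3754.

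Shifted genes that were not flat had a different arrangement. The 371 lower ones had medians of 0.82 for control vector and 0.15 for shRp58 against parental cells, and control vector lay nearer in 19.4%. The 260 higher ones had medians of -0.79 and -0.09, and control vector lay nearer in 8.85%. At the medians, the control line stood farther from parental day 0 in the shifted genes that moved during differentiation. In the members the shRp58 line stood farther. Centring each array on its median in place of quantile normalization gave 0.21 and -0.37 for the 27 and 0.93 and 0.21 for the 371. The parental day 0 array also decided which genes counted as flat. Whether the difference between flat and moving genes exceeds array error was not tested.

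Single genes departed from these medians. Tmem47 was at -0.20 in control-vector and -1.18 in shRp58 cells against parental cells, and Medag at 0.14 and -0.72. Sema3c stood above parental cells in both stable lines (1.74 and 1.13), as did Mgam (0.92 and 0.44), Enho (0.97 and 0.50) and Dmpk (1.07 and 0.36). Pdgfrb (-0.60 and -1.23) and Arid4a (-0.88 and -1.54) stood below them in both. Sgk1 was at -0.50 with control vector and 0.09 with shRp58, so there the control line was the one farther off.

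**Figure D5:**
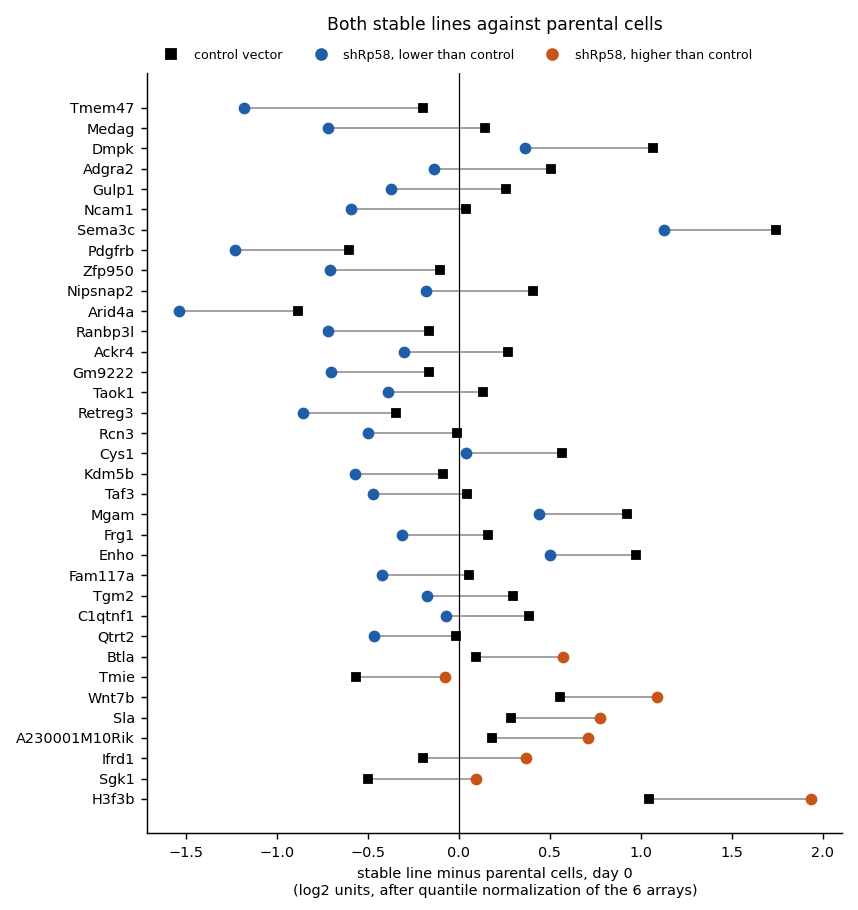
Control vector (black squares) and shRp58 (coloured circles) minus parental cells at day 0, in log2 units after quantile normalization of the 6 arrays, for the 35 genes. For 18 of 27 lower and 6 of 8 higher genes the square lies nearer to 0 than the circle; Sema3c lies right of 0 and Arid4a left of 0 in both lines.

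Across 36 gene lists with a gene at the level, 7 held a member. The 4 genes concerned were Sema3c, Pdgfrb, Ncam1 and Zfp950, and the other 31 members were on none. The share of all genes on any list was not counted, so members are not called scarce or frequent on the lists. Muscle genes (36 of 53 at least 0.5 lower, median -0.94) and replication and mitosis genes (37 of 51 at least 0.5 higher, median 0.69) held no member; 6 and 1 of the listed genes were flat, and these were not shifted by 0.5. The myogenic markers Myod1, Myf5, Des, Cdh15, Chrna1 and Myog all read above the median in both stable lines (9.87 to 13.8). All were lower with shRp58, from -0.07 (Myf5) to -0.72 (Myog), with a median of -0.16. Of 5 fibroblast markers 4 reached the level, and the median hairpin difference was -0.12. Without the member Pdgfrb the summed log2 level of the other 4 was 30.88 with control vector and 29.98 with shRp58, with Dcn at -0.95, Pdgfra at -0.12, Thy1 at -0.02 and Lum at 0.19. Endothelial, leukocyte and epithelial markers had median hairpin differences of 0.01, 0.10 and 0.07, and neuronal markers of 0.82, led by Nefl at 1.39. The part of other cells in the members' differences was not tested, and in such bulk RNA fewer cells of a kind and less RNA per cell cannot be told apart.

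By position in the genome, the members were spread over 17 chromosomes, with at most 5 on 1 of them. None was the next kept gene to another. The same counts were not made for other sets of genes, so nothing about spacing is read from them. Over all genes, 3.06% were at least 0.5 lower with shRp58 and 2.05% at least 0.5 higher. Of 70 genes next to a member, 1 was shifted by at least 0.5 in the same direction. That gene was Cd36, a fatty acid transporter beside Sema3c, with a hairpin difference of -1.50; it is named because of this count, after its value was seen.

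RefSeq promoter sequences of the GRCm38.p6 build, from 250 bases before to 50 after a start site, were found for 25 of the 35 genes by symbol. The letters ACATCTG, the core of the site that Rp58 is known to bind, were found on either strand for 1 of the 25 (4%, Zfp950), against 5.1% of all 27025 genes in the table. The E-box CANNTG, which reads alike on both strands and overlaps every ACATCTG, was there for 18 (72%), against 75% of all. TGANTCA, the AP-1 site, was found for 0 of 25 and in 8.97% of all, and TATAAA for 4 (Ackr4, Mgam, Sgk1 and H3f3b) and in 15.7%. Members were thus near the share of all genes for the E-box motifs, and a missing match says only that the letters are not in this window. Stretches of 120 bases upstream of the start site are shown for Zfp950, the one match to the Rp58 core, and for the E-boxes of 3 of the lower genes with the widest differences. Capitals mark ACATCTG in Zfp950 and CANNTG in the others, each on the strand of the gene.
Zfp950, chr19:61140951-61141070, minus strand: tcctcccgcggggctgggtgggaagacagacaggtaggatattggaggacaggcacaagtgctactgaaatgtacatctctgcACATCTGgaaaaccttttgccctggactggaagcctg
Tmem47, chrX:81070394-81070513, plus strand: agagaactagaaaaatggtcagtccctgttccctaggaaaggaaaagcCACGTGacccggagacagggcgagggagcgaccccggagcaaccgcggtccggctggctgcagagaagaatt
Medag, chr5:149411629-149411748, plus strand: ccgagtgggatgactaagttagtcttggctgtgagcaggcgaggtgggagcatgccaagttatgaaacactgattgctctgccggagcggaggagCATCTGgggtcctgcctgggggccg
Sema3c, chr5:17574652-17574771, plus strand: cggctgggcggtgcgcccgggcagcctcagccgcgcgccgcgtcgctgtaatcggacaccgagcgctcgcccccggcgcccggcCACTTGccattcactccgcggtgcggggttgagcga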

How the data were processed

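Expression was measured in 6 C2C12 samples, 1 array each. The deposited values are log2 intensities per probe set that the authors made with RMA, per the series' design text. The program and any joint processing were not stated in what was used here. The platform annotation gave 1 gene for 34958 of 45101 probe sets, several for 932 and none for 9211. Gene IDs matched RefSeq GRCm38.p6 for 34754 probe sets, and 0 symbols changed. Differences were taken between arrays as deposited, within the parental or the stable-line set. With 1 array per group no test was run, and counts of members past a limit are read beside the share of all genes past it where that is given. The code of the rule was checked on simulated data with planted shifts larger than the limit. That check gives no error rate for the real differences.

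The members and gene lists were chosen with earlier results of these data known, so no pattern serves as independent support. Genes named were Zbtb18, the 15 largest and 15 smallest hairpin differences among members, members on a list or with other probe sets past 0.5 or of opposite sign, the 5 largest and 5 smallest steps from growth medium, and 3 genes on each side of each threshold; markers and list genes beyond these were named to describe a list.

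Alternatives were other scalings (centring, quantile, loess), thresholds, level limits and probe set choices. Python 3.11.15, pandas 2.3.3 and statsmodels 0.14.6 (lowess, fraction 0.3) were used.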

Additional observations from a re-analysis of the deposited data

Results flagged for a closer look

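A signal appeared in probe sets that no comparison above used. Among 10143 probe sets annotated to several genes or to none, 4212 reached a level of 8 and 18 of them met the same limits on hairpin difference and flatness, 14 lower and 4 higher with shRp58, from -0.78 to 0.67. Their day 0 minus growth medium differences had medians of 0.56 (lower) and -0.25 (higher). Their genes are not named here.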

How the results depend on the processing

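The 35 members kept the sign of their hairpin difference under centring, quantile (over all arrays or within sets) and loess normalization, but 23, 29 and 29 stayed past 0.5 after quantile over all arrays, quantile within sets and loess. Applied anew, the rule gave 17 lower genes after quantile normalization over all arrays, and 21 of its 23 genes were among the 35. It gave 23 higher genes with no minimum level and 13 at a minimum of 7.5. A hairpin threshold of 0.4 gave 78 lower and 36 higher, and 0.6 gave 13 and 1. A flatness limit of 0.3 gave 5 higher. Flatness from growth medium as well left 6 lower and 4 higher. The mean over a gene's probe sets gave 15 lower, and 17 of its 21 genes were among the 35. Control vector minus parental day 0 in the lower genes had a median of 0.21 after centring. All other probe sets shared the sign in 13 genes, and in 6 when those under 0.5 were set aside, which leaves fewer genes to count. The causes were not tested beyond these constructions. The flatness check over further probe sets and the use of days 0, 2 and 4 together against growth medium were added after seeing the data. No paired analysis was possible because each group held 1 array, and no array could be left out. Members under the stable-line median on at least 1 array (6) are limited by low signal.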
